A study of Mus musculus with 20 samples.

Results

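The genes described here encode the proteins of the cytosolic ribosome, in the blood of mice that lack the kinase Lyn. They were chosen by symbol alone: every listed gene whose symbol starts with Rpl or Rps and a digit, and Rpsa, Rplp0, Rplp1 and Rplp2, leaving out the S6 kinases (symbols starting with Rps6k) and pseudogenes (symbols with -ps). The rule gave 78 of 9228 listed genes, or 0.845%. Of these, 30 encode proteins of the small (40S) subunit, 40 proteins of the large (60S) subunit and 3 proteins of the ribosomal stalk (Rplp0, Rplp1 and Rplp2). The other 5 are 4 paralogs (Rpl22l1, Rpl36al, Rps27l and Rpl7l1) and Rps19bp1, which encodes a protein that binds RPS19 and is not a ribosomal protein. The members lay on 19 chromosomes, with 14 on chromosome 7 and 4 on X (Rpl10, Rpl39, Rpl36a and Rps4x).

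RNA was sequenced from peripheral blood of 20 C57BL/6 mice aged 22 to 23 weeks, with 5 genotypes of 4 mice each. Double mutants lacked Irf5 (Lyn-/-Irf5-/-), kept 1 of its copies (Lyn-/-Irf5+/-) or lacked Ifnar1 (Lyn-/-Ifnar1-/-) and were set against Lyn-/- mice, which were in turn set against wild-type (WT) mice, so that the Lyn deletion was shared by every genotype but WT. Lyn is a Src family kinase whose loss gives a lupus-like disease, IRF5 is a transcription factor that Toll-like receptors activate, and IFNAR1 is a chain of the type I interferon receptor. Irf5 was lost in the germline rather than in chosen cells, and whole blood is a mixture, in which fewer cells of a type and less RNA per cell cannot be told apart.

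A ribosome holds 1 copy of most of its proteins, and cells make them in matched amounts, since a protein without its partners is quickly degraded. Their mRNAs are among the most abundant of a growing cell, and most start with a C followed by a run of pyrimidines (the 5′ terminal oligopyrimidine tract, or TOP), through which mTORC1 and LARP1 control translation and stability. In blood, lymphocytes that become activated make many ribosomes, whereas reticulocytes, the youngest red cells, have no nucleus and use up the ribosomal mRNA that they carry until it is lost. Free RPL5 and RPL11 also bind MDM2 and so link ribosome assembly to p53, and loss of 1 copy of several of these genes, such as RPS19, causes Diamond-Blackfan anaemia in humans.

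The TOP is a sequence at the transcription start, so the starts of members that the results turn on are printed here from the RefSeq promoter table (GRCm38.p6). Each line gives 15 bases before and 15 from the first listed start, 5′ to 3′ on the gene's strand, with 1 run of C and T in capitals, the one that holds the C followed by at least 4 C or T nearest to that start (up to 10 bases away). Further runs stay in lower case.
Rps18, chr17:33955651-33955680, minus strand: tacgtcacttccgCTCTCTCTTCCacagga
Rpl14, chr9:120571502-120571531, plus strand: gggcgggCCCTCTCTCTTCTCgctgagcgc
Rpl13a, chr7:45128731-45128760, minus strand: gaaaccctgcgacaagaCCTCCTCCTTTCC
Rpl12, chr2:32961697-32961726, plus strand: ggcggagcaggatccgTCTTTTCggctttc
Rpl36a, chrX:134585639-134585668, plus strand: gtgcacccaggcaccgcctataaaCTTCCg
Rps6, chr4:86857353-86857382, minus strand: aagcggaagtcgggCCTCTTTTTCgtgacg
Rplp2, chr7:141447636-141447665, plus strand: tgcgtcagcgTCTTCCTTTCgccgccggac
Rpl22, chr4:152325711-152325740, plus strand: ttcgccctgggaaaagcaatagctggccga
Rpl41, chr10:128549154-128549183, minus strand: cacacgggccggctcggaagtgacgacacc

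Rps18 and Rpl14 have long runs across the start, whereas the windows of Rpl22 and Rpl41 hold no such run. Of 78 members, 59 matched an entry of the table. On the gene's strand, a C followed by at least 4 C or T began exactly at the first listed start in 11 of 59 members (18.6%), against 673 of 27025 genes of the table (2.49%). Within 10 bases of that start, the count was 31 of 59 members (52.5%), against 8325 of 27025 genes (30.8%). A match, or the lack of one, describes these letters at 1 annotated start and does not show where transcription starts in blood. Another annotation (GENCODE) starts Rpl22 at chr4:152325742 and Rpl41 at chr10:128549305, each outside the window printed for it.

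All 78 members were among the 8696 genes tested, those with at least 1 RPKM in at least 4 libraries. RPKM is reads per kilobase of gene, scaled to library size, so levels can be set side by side between genes. The highest mean levels over 20 mice were those of Rplp1 (2828 RPKM), Rpl41 (2094 RPKM), Rplp2 (1847 RPKM), Rps12 (1691 RPKM) and Rplp0 (1640 RPKM, 1639.5 before rounding), which include the 3 stalk proteins that recruit translation factors. The lowest were those of Rps19bp1 (2.94 RPKM), Rpl7l1 (6.83 RPKM), Rpl22l1 (8.59 RPKM), Rps27l (14.2 RPKM) and Rpl36al (20.1 RPKM), that is the 4 paralogs and the gene that encodes no ribosomal protein. Read counts, recovered from the RPKM values, were at least 50 in every library for 70 members, and no count of a subunit or stalk protein was under 27. Ribosomal protein genes have many near-identical processed pseudogenes and Rpl36a and Rpl36al are close paralogs. How reads that fit several places were counted is not given in the sources used here, so the split of such reads between copies is uncertain.

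The listed genes held 2246597 to 3634767 reads per library, and 3 genes of hemoglobin chains in the table (Hbq1a, Hbq1b and Beta-s) took 29.7 to 58.4% of them. The median reads per gene differed more, from 11 in Lyn-/-Ifnar1-/- mouse 3 to 52 in Lyn-/-Irf5-/- mouse 2. Lyn averaged 7.51 to 10.9 RPKM in the 4 Lyn-/- genotypes, against 34.6 ± 2.44 RPKM in WT mice (SD, n = 4). The Irf5 level was 38.2 ± 2.33 RPKM where the label is Lyn-/-Irf5-/- and 28.7 ± 3.43 RPKM where it is Lyn-/-Irf5+/-, against 33.3 ± 5.35 RPKM in Lyn-/- mice, and Ifnar1 was 8.50 ± 2.15 RPKM in mice labelled Lyn-/-Ifnar1-/-, against 5.38 ± 0.523 RPKM in Lyn-/- mice (SD, n = 4 each). Whole-gene values do not show which exons were read, so these genotypes rest on the labels alone. Mice 3 and 4 of the Lyn-/-Ifnar1-/- genotype stood apart from mice 1 and 2, with TMM factors, relative to the other libraries, of 0.428 and 0.629, against 1.20 and 1.35. The Lyn-/-Irf5+/- samples have later GEO record numbers than the others and no label gives a batch, so this genotype and any batch cannot be told apart. Genotypes were compared by limma on log2(RPKM + 0.5), on which scale all fold changes below are given, with Benjamini-Hochberg adjustment over 8696 genes and a threshold of 0.05.

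The typical member was highest in Lyn-/-Irf5+/- mice and lowest in Lyn-/- mice. The median of the 78 members on the log2 scale was 8.01 ± 0.09 in Lyn-/-Irf5-/- mice, 8.28 ± 0.25 in Lyn-/-Irf5+/- mice, 7.94 ± 0.18 in Lyn-/-Ifnar1-/- mice, 7.82 ± 0.08 in Lyn-/- mice and 8.05 ± 0.14 in WT mice (SD, n = 4 each). By mouse, it was 7.90, 8.46, 8.40 and 8.34 in Lyn-/-Irf5+/- mice, against 7.71, 7.88, 7.80 and 7.89 in Lyn-/- mice, so that the lowest Lyn-/-Irf5+/- mouse lay just above the highest Lyn-/- mouse. The intermediate genotypes were WT, then Lyn-/-Irf5-/-, then Lyn-/-Ifnar1-/-, and each of them overlapped with its neighbour. As a share of reads outside hemoglobin, which no scaling changes, the members held 4.38 to 5.55% in Lyn-/-Irf5-/- mice, 4.35 to 5.46% in Lyn-/-Irf5+/- mice, 2.36 to 4.50% in Lyn-/-Ifnar1-/- mice, 2.12 to 3.21% in Lyn-/- mice and 3.72 to 4.96% in WT mice. On this measure Lyn-/- mice were below all mice of every other genotype but Lyn-/-Ifnar1-/-, while the ranges of both Irf5 genotypes were nearly the same. The share also depends on the other genes outside hemoglobin, and the typical gene moved with it. With equal RPKM sums outside hemoglobin, the median of all genes was -0.53 in Lyn-/- against WT mice (members -0.80). It was 0.65 in Lyn-/-Irf5-/- (members 0.88) and 0.25 in Lyn-/-Irf5+/- (members 0.82) against Lyn-/- mice.

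**Figure D1:**
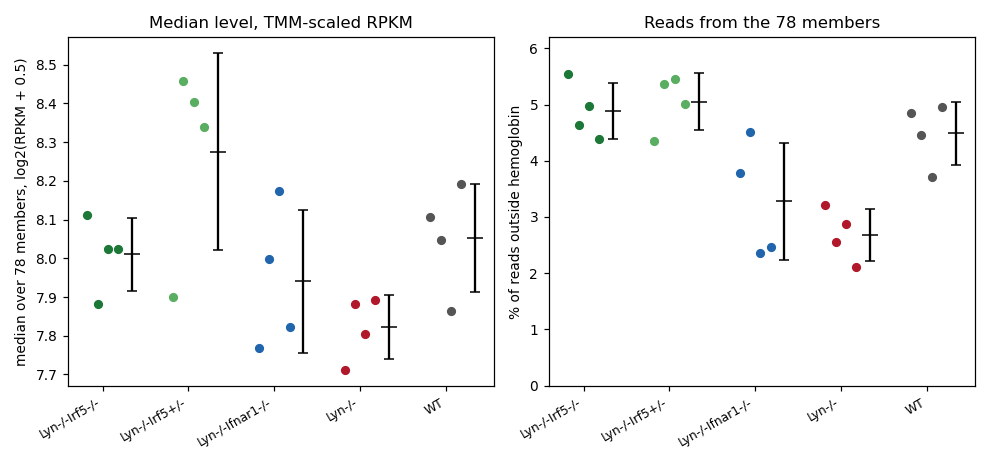
Left, median log2(RPKM + 0.5) of the 78 ribosomal protein genes in each mouse (points), with the mean and SD of each genotype (dash and bar, n = 4). Right, reads from the 78 genes as a percentage of reads outside hemoglobin, drawn in the same way. On the left, Lyn-/-Irf5+/- mouse 1 (7.90) sits apart from mice 2 to 4 of its genotype (8.34 to 8.46), and the Lyn-/- mice lie between 7.71 and 7.89.

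Ribosomal protein mRNA was higher in mice labelled Lyn-/-Irf5+/-, which carry 1 copy of Irf5, than in Lyn-/- mice. Of 78 members, 31 rose and 0 fell, while 6.12% of all genes tested rose and 8.46% fell. At an unadjusted p under 0.05, 52 members were higher and 0 lower, and voom on recovered reads called 33 and 0. The members that rose were 17 of 30 small-subunit proteins and 14 of 43 large-subunit and stalk proteins, and none of the 4 paralogs or Rps19bp1. The median fold change over the members was 0.51 on the log2 scale, against -0.001 over all genes tested, and 77 of 78 members had a positive value. The lowest mouse of Lyn-/-Irf5+/- was above the highest of Lyn-/- for 32 members, against 7.42% of all genes.

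The largest rise was that of Rpl22, a large-subunit protein with a paralog (Rpl22l1) whose mRNA it represses in mice. Rpl22 measured 48.2, 73.0, 72.1 and 61.1 RPKM in Lyn-/-Irf5+/- mice, against 35.4, 35.6, 31.8 and 29.6 RPKM in Lyn-/- mice. The genotypes did not overlap, and the rise on the log2 scale was 0.92 ± 0.16 (SE, with an adjusted p of 0.0013 in limma). Rpl22l1 itself measured 5.96, 15.4, 5.23 and 9.31 RPKM in Lyn-/-Irf5+/- mice, against 5.78, 8.30, 8.68 and 6.41 RPKM in Lyn-/- mice, and did not pass the test. Rpl36a measured 117, 176, 200.1 and 171 RPKM in Lyn-/-Irf5+/- mice, against 79.4, 91.8, 90.3 and 92.0 RPKM in Lyn-/- mice, again without overlap (0.88 ± 0.18, limma adjusted p = 0.00275). Rpl12, which lies at the base of the stalk, measured 869.5, 1439, 1359.6 and 1198 RPKM in Lyn-/-Irf5+/- mice, against 583, 761, 742 and 580.1 RPKM in Lyn-/- mice (0.85 ± 0.19, limma adjusted p = 0.0062). Mouse 1 was the lowest of the Lyn-/-Irf5+/- mice for each of these 3 members that rose.

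The proteins of the 5S particle, RPL5 and RPL11, assemble with 5S rRNA before they join the large subunit, and both of their mRNAs rose. Rpl5 measured 154, 262, 263 and 201 RPKM in Lyn-/-Irf5+/- mice, against 122, 136, 134 and 113 RPKM in Lyn-/- mice (0.77 ± 0.17, limma adjusted p = 0.0044). Rpl11 measured 350.3, 494, 514 and 508 RPKM in Lyn-/-Irf5+/- mice, against 344, 310.4, 311 and 319 RPKM in Lyn-/- mice (0.52 ± 0.16, limma adjusted p = 0.036). In both, mice 2 to 4 were the highest and mouse 1 lay closer to the Lyn-/- mice, without overlapping them.

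Small-subunit members included Rps20, Rps7 and Rps21, with fold changes of 0.78 ± 0.24, 0.76 ± 0.19 and 0.67 ± 0.20 and limma adjusted p of 0.0343, 0.012 and 0.0313. Rps7, whose human gene is one of the anaemia genes, measured 385, 723, 737 and 592 RPKM in Lyn-/-Irf5+/- mice, against 319, 386, 335 and 355 RPKM in Lyn-/- mice, and mouse 1 was within the Lyn-/- mice. Rps19, the anaemia gene most often hit in humans, measured 204, 348, 312 and 324 RPKM in Lyn-/-Irf5+/- mice, against 199, 233, 193 and 209 RPKM in Lyn-/- mice. For Rps19 the fold change was 0.48 ± 0.18 and the limma adjusted p 0.0801, so it did not pass the test. None of the 3 stalk proteins passed either, with fold changes of 0.29 ± 0.31 for Rplp0, 0.62 ± 0.28 for Rplp1 and 0.28 ± 0.30 for Rplp2.

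The count of members that rose depended on single mice. It was 10, 15 and 18 without Lyn-/-Irf5+/- mouse 2, 3 or 4, 20 and 16 without Lyn-/- mouse 2 or 4, 11 with only these genotypes in the model and 0 with every library brought to the same RPKM sum, where the members' median was 0.26 and that of all genes -0.20. Measured against the median of all genes, the members were 0.51 higher in the main scaling, 0.46 higher with equal RPKM sums and 0.56 higher with equal sums outside hemoglobin. Markers of lymphocytes rose in the same mice. Of 17 B cell markers, 13 rose and 0 fell, with summed levels of 254 to 295 RPKM in Lyn-/-Irf5+/- mice, against 112 to 171 RPKM in Lyn-/- mice. Of 22 T cell markers, 11 rose and 0 fell, with sums of 749.7 to 890.4 RPKM in Lyn-/-Irf5+/- mice, against 399 to 584 RPKM in Lyn-/- mice. Of 28 erythroid markers, 16 fell and 0 rose, and of 14 monocyte markers tested, 8 fell and 0 rose. Hemoglobin genes, however, took 34.5, 58.4, 54.6 and 47.3% of reads in Lyn-/-Irf5+/- mice 1 to 4, against 29.7 to 34.6% in Lyn-/- mice. Over 20 libraries the member median correlated with log2 Beta-s at r = 0.51 (0.60 within genotypes). No marker of any list was at 0 in all mice of a genotype, and the part of these cells in the result was not tested.

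**Figure D2:**
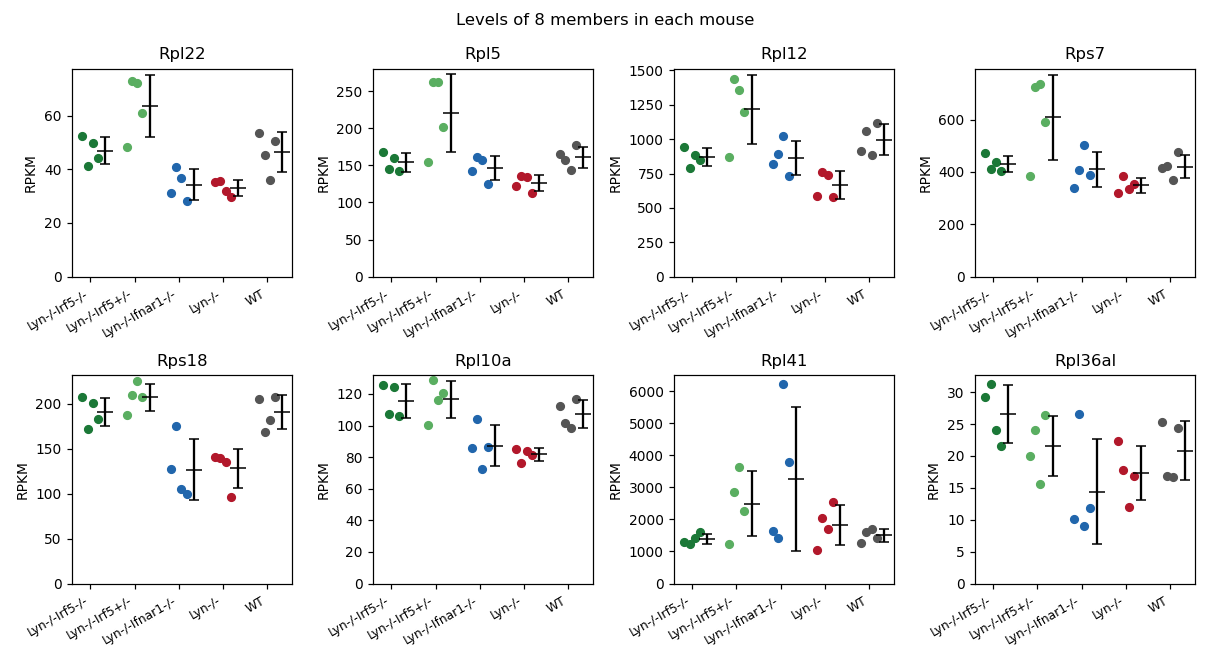
RPKM of 8 ribosomal protein genes in each mouse (points), with the mean and SD of each genotype (dash and bar, n = 4). Rpl22, Rpl5, Rpl12 and Rps7 are highest in Lyn-/-Irf5+/- mice 2 to 4, Rps18 and Rpl10a are lower in Lyn-/- than in WT mice, and Rpl41 reaches 6226 RPKM in Lyn-/-Ifnar1-/- mouse 3.

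In mice labelled Lyn-/-Irf5-/-, 3 members rose and 0 fell relative to Lyn-/- mice, while 5.36% of all genes tested rose and 8.58% fell. By unadjusted p under 0.05 the counts were 15 and 0, and by voom 3 and 0. The median over the members was 0.19 on the log2 scale, with 57 of 78 values positive. The share of members that rose was thus below that of all genes. The members that rose were Rps18, Rpl22 and Rpl10a. Rps18, a protein of the head of the small subunit, measured 207, 172, 200.4 and 183 RPKM in Lyn-/-Irf5-/- mice, against 141, 139, 136 and 95.9 RPKM in Lyn-/- mice (0.59 ± 0.18, limma adjusted p = 0.0289). Rpl10a, a protein of the large subunit's other stalk, measured 126, 107, 124 and 106 RPKM in Lyn-/-Irf5-/- mice, against 85.3, 76.3, 84.0 and 81.6 RPKM in Lyn-/- mice (0.49 ± 0.14, limma adjusted p = 0.0187). Rpl22 measured 52.6, 41.2, 49.95 and 44.3 RPKM in Lyn-/-Irf5-/- mice (0.50 ± 0.16, limma adjusted p = 0.0487). In none of the 3 did Lyn-/-Irf5-/- mice overlap with Lyn-/- mice. Of 34 other settings of the analysis, Rps18 passed in 28, Rpl10a in 29 and Rpl22 in 16.

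Although few members passed the test, all 4 Lyn-/-Irf5-/- mice were above all 4 Lyn-/- mice for 30 of 78 members, against 9.63% of all genes. The count of members that rose was 0 without Lyn-/-Irf5-/- mouse 1 or 3, 1 without Lyn-/-Irf5-/- mouse 4 or Lyn-/- mouse 2 or 4, 6 without Lyn-/-Ifnar1-/- mouse 2 or 3, 5 with only these genotypes in the model, 8 with equal RPKM sums and 71 with equal sums outside hemoglobin, where the median of all genes was 0.65. Cell markers moved here too, with 12 of 17 B cell and 14 of 22 T cell markers higher and 20 of 28 erythroid markers lower. Hemoglobin genes took 34.9 to 43.5% of reads in Lyn-/-Irf5-/- mice, against 29.7 to 34.6% in Lyn-/- mice. The B cell markers summed to 256 to 359 RPKM in Lyn-/-Irf5-/- mice, against 112 to 171 RPKM in Lyn-/- mice. The part of these cells in the result was not tested.

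Lyn-/-Irf5+/- and Lyn-/-Irf5-/- mice were also set against each other, a comparison added after the data were seen. No member passed the test, nor did any other of the 8696 genes (0.0% higher and 0.0% lower, also with voom on the recovered reads). At an unadjusted p under 0.05, 19 members were higher and 0 lower, and of all genes 290 were higher and 424 lower. With only these genotypes in the model, 102 genes were higher and 19 lower, and with array weights 15 and 18, again with 0 members. The members' median was 0.33 on the log2 scale, against -0.04 over all genes, with 73 of 78 values positive. For 3 members all Lyn-/-Irf5+/- mice were above all Lyn-/-Irf5-/- mice and for 0 below, against 3.94% and 4.08% of all genes. Rpl22 measured 48.2, 73.0, 72.1 and 61.1 RPKM in Lyn-/-Irf5+/- mice, against 52.6, 41.2, 49.95 and 44.3 RPKM in Lyn-/-Irf5-/- mice (0.42 ± 0.16, limma adjusted p = 0.542), and mouse 1 of Lyn-/-Irf5+/- lay within the Lyn-/-Irf5-/- mice. Rpl5 differed by 0.48 ± 0.17 (limma adjusted p = 0.517). With equal RPKM sums the signs turned, with values of -0.37 for Rpl22, -0.31 for Rpl5 and -0.46 for the members' median, and all genes then had a median of -0.71.

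**Figure D3:**
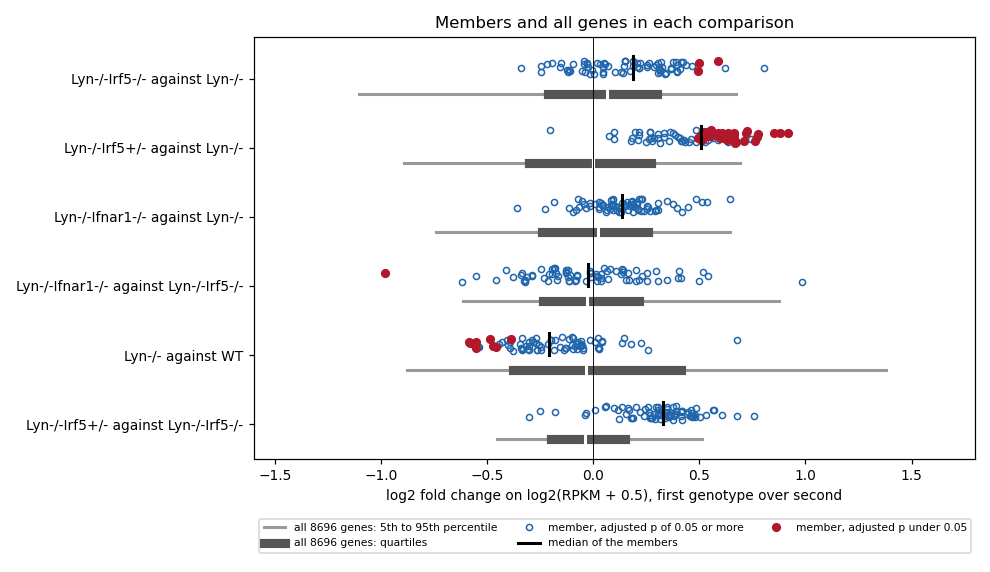
Log2 fold changes of the 78 members in each comparison (points), with filled points for those past an adjusted p of 0.05 in limma a line at the median, and grey bars below them for the quartiles and the 5th to 95th percentile of all genes tested. The Lyn-/-Irf5+/- values lie almost wholly above 0 (median 0.51, 31 called), and those of Lyn-/- against WT mostly below it (median -0.21, 9 called).

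In mice labelled Lyn-/-Ifnar1-/-, no member passed the test against Lyn-/- mice by limma, while 2.74% of all genes tested rose and 3.96% fell. At an unadjusted p under 0.05, 2 members were higher and 0 lower, and voom called none. The median over the members was 0.13 on the log2 scale, with 65 of 78 values positive. For 2 members all Lyn-/-Ifnar1-/- mice were above all Lyn-/- mice and for 0 below, against 4.17% and 4.83% of all genes. Rpl41, the shortest ribosomal protein, measured 1648, 1409, 6226 and 3783 RPKM in Lyn-/-Ifnar1-/- mice, against 1039, 2057, 1693 and 2536 RPKM in Lyn-/- mice. Mice 3 and 4 were above all Lyn-/- mice and mice 1 and 2 within them (0.64 ± 0.40, limma adjusted p = 0.364). Without mice 3 and 4 the fold change of Rpl41 was -0.19. With equal RPKM sums the members' median turned to -0.08, against -0.14 over all genes. Markers of lymphocytes rose in this genotype too, although no member was called. Of 17 B cell markers, 8 rose and 0 fell, and of 22 T cell markers, 9 rose and 0 fell. Of 28 erythroid markers, 1 fell and 0 rose, and of 14 monocyte markers tested, 9 fell and 0 rose. The part of these cells in the members' values was not tested.

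Against Lyn-/-Irf5-/- mice, Lyn-/-Ifnar1-/- mice had 1 member that fell and 0 that rose, while 2.06% of all genes fell and 1.95% rose. By unadjusted p under 0.05, 6 members were lower and 2 higher, and by voom 1 and 0. The member was Rpl36al, the autosomal paralog of the X-linked Rpl36a. Rpl36al held 5 to 77 reads per library and passed in 13 of 34 other settings of the analysis. It measured 10.1, 26.6, 8.99 and 11.8 RPKM in Lyn-/-Ifnar1-/- mice, against 29.3, 31.4, 24.1 and 21.5 RPKM in Lyn-/-Irf5-/- mice (-0.98 ± 0.27, limma adjusted p = 0.0465). Mouse 2 was within the Lyn-/-Irf5-/- mice and the other 3 below them. The count of members that fell was 0 without Lyn-/- mouse 2, Lyn-/-Ifnar1-/- mouse 3 or 4, Lyn-/-Irf5+/- mouse 1, 2 or 4 or any one of the Lyn-/-Irf5-/- or WT mice, 2 without Lyn-/- mouse 1 or 4 and 5 without Lyn-/-Ifnar1-/- mouse 2. For 2 members all Lyn-/-Ifnar1-/- mice were above all Lyn-/-Irf5-/- mice and for 4 below, against 4.81% and 6.22% of all genes. The members' median was -0.03, and 31 members fell with equal RPKM sums outside hemoglobin, where the members' median was -0.71. Of 28 erythroid markers, 8 rose in this comparison, and without hemoglobin they summed to 26089 to 142374 RPKM in Lyn-/-Ifnar1-/- mice, against 19114 to 32294 RPKM in Lyn-/-Irf5-/- mice. Their part in the values of the members was not tested.

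Loss of Lyn alone was set against WT mice. In Lyn-/- mice 9 of 78 members fell and 0 rose relative to WT mice, while 15.5% of all genes tested fell and 17.1% rose, so that the share of members that fell was below that of all genes. By unadjusted p under 0.05, 17 members were lower and 1 higher, and by voom 9 and 0. The median over the members was -0.21 on the log2 scale, against -0.03 over all genes, and 13 of 78 values were positive. All 4 Lyn-/- mice were below all 4 WT mice for 21 members, against 16.7% of all genes. The members that fell were 3 small-subunit proteins (Rps18, Rps4x and Rps25) and 6 large-subunit proteins (Rpl12, Rpl14, Rpl13a, Rpl22, Rpl3 and Rpl10a).

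Rps18 measured 141, 139, 136 and 95.9 RPKM in Lyn-/- mice, against 205, 169, 181 and 207 RPKM in WT mice, without overlap (-0.59 ± 0.18, limma adjusted p = 0.0149). Rpl13a, which in human myeloid cells also leaves the ribosome to silence inflammatory mRNAs, measured 403, 375, 380.4 and 323 RPKM in Lyn-/- mice, against 592, 539.7, 460.1 and 589.8 RPKM in WT mice (-0.56 ± 0.17, limma adjusted p = 0.0152). Rpl14, a large-subunit protein with a long pyrimidine run across its start, measured 117, 111, 109 and 98.6 RPKM in Lyn-/- mice, against 179.9, 156, 138 and 172 RPKM in WT mice (-0.56 ± 0.18, limma adjusted p = 0.0186). The other 6 members that fell had fold changes of -0.58 ± 0.19 for Rpl12, -0.46 ± 0.16 for Rpl3, -0.55 ± 0.16 for Rps4x, -0.49 ± 0.16 for Rps25, -0.47 ± 0.16 for Rpl22 and -0.39 ± 0.14 for Rpl10a.

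The Lyn-/- mice enter both this comparison and those of the double mutants, so a low value in them moves both. Rps18, Rpl22 and Rpl10a, the members that rose in Lyn-/-Irf5-/- mice, were among those that fell here, and the Lyn-/-Irf5+/- values of the same genes were 0.71 ± 0.18, 0.92 ± 0.16 and 0.50 ± 0.14 relative to Lyn-/- mice. Against WT mice the count of members that fell was 1 without Lyn-/- mouse 4, 3, 4 and 3 without WT mouse 1, 2 or 4, 16 without Lyn-/-Ifnar1-/- mice 3 and 4, 1 with equal RPKM sums and 68 with equal sums outside hemoglobin, where the median of all genes was -0.53. All 17 B cell markers fell, with sums of 112 to 171 RPKM in Lyn-/- mice, against 789 to 1069 RPKM in WT mice, and 11 of 22 T cell markers fell. All 14 monocyte markers tested, 13 of 14 neutrophil markers and 19 of 28 erythroid markers rose. Hemoglobin genes took 29.7 to 34.6% of reads in Lyn-/- mice, against 39.2 to 42.7% in WT mice. No marker was at 0 in all mice of a genotype, and the part of these cells in the members' values was not tested.

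Rpl and Rps members did not keep the same distance in all mice. Within a mouse, the median of the Rpl members minus that of the Rps members was -0.73 ± 0.03 on the log2 scale in Lyn-/-Irf5-/- mice, -0.69 ± 0.09 in Lyn-/-Irf5+/- mice, -0.39 ± 0.32 in Lyn-/-Ifnar1-/- mice, -0.45 ± 0.17 in Lyn-/- mice and -0.75 ± 0.10 in WT mice (SD, n = 4 each). By mouse it was -0.63, -0.70, -0.16 and -0.07 in Lyn-/-Ifnar1-/- mice and -0.62, -0.25, -0.56 and -0.37 in Lyn-/- mice, so that 5 mice of these genotypes were above every mouse of the others. No scaling of a library can change this difference. Without the paralogs and Rps19bp1 the values were -0.54 ± 0.06, -0.45 ± 0.09, -0.28 ± 0.19, -0.23 ± 0.14 and -0.45 ± 0.10 in the same order, and the same 5 mice were the highest. With means over all members the values were smaller still (-0.29, -0.25, -0.20, -0.17 and -0.26).

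The members moved together, but not as 1 block. Over 20 libraries, the median correlation between pairs of the 73 subunit and stalk proteins was 0.66, and 66 of 73 had r over 0.5 with the median of the other members. Rps7 was nearest to that median (r = 0.96) and Rps4x farthest (r = 0.38). Each library adds 1 point, and the points share depth and scaling. Rps19 and Rpl11 kept the steadiest distance from the member median (SD 0.09 each on the log2 scale), and Rpl41 the least steady of the subunit proteins (SD 0.61).

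**Figure D4:**
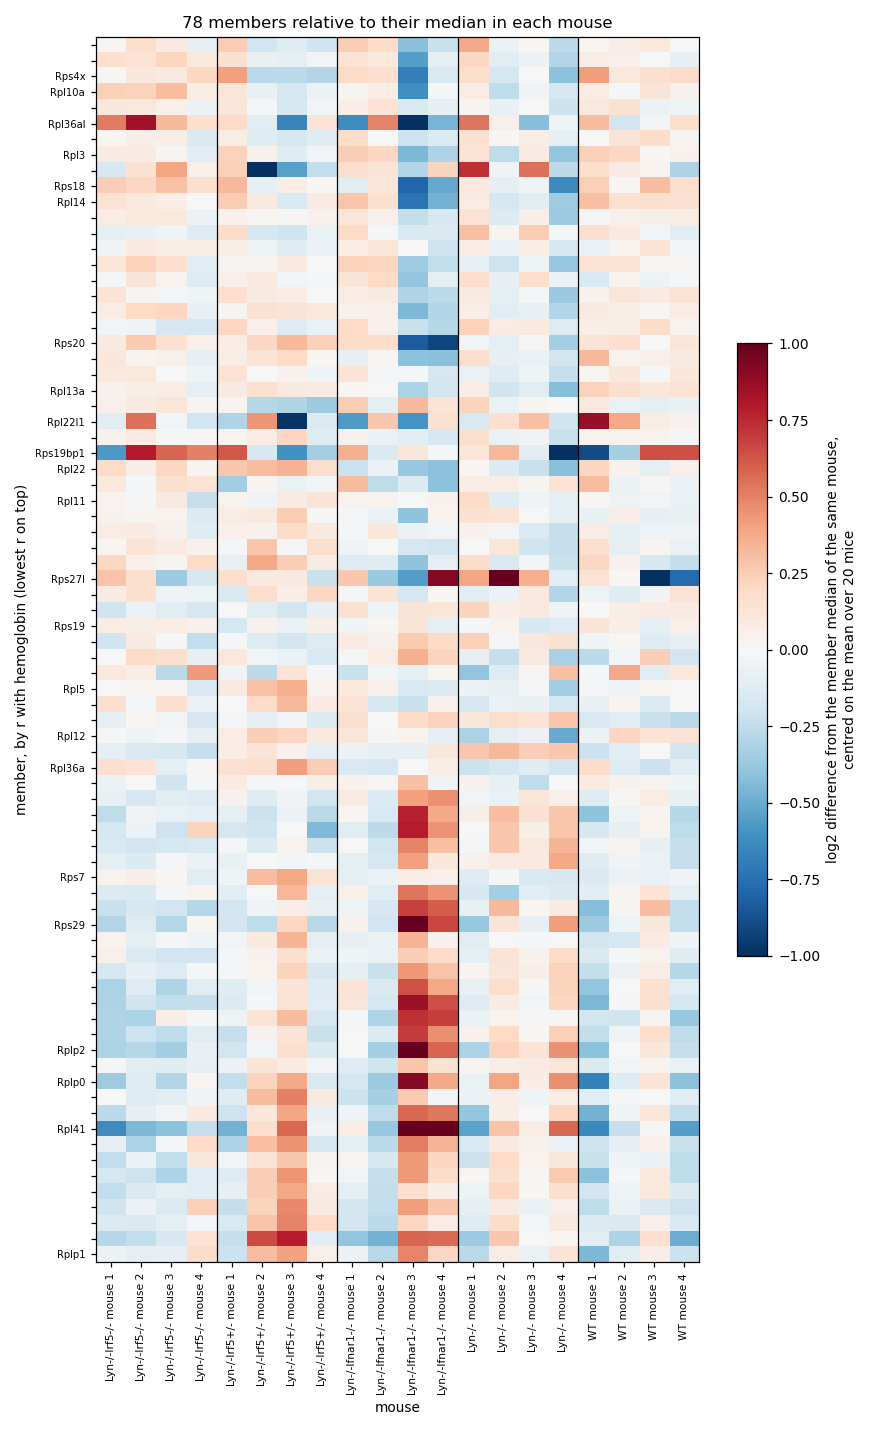
Each member's log2(RPKM + 0.5) minus the median of all members in the same mouse, centred on the member's mean over 20 mice (colour), with members as rows and mice as columns. The rows are sorted by their correlation with log2 Beta-s, and some members are labelled by name. Lyn-/-Ifnar1-/- mice 3 and 4 stand out against the other mice at both ends.

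Many of the subunit and stalk proteins moved apart from the member median along with the TMM-scaled RPKM of Beta-s, up or down. The difference between a member and the member median in the same mouse, which no scaling of a library changes, correlated with log2 Beta-s over 0.5 in 28 of 73 subunit and stalk proteins and under -0.5 in 15. For Rplp1 r was 0.87 (Spearman's rho 0.79, r 0.80 without the 2 libraries farthest in Beta-s and 0.95 within genotypes). For Rpl41 r was 0.84 (rho 0.84, 0.86 without those 2 and 0.90 within genotypes). At the other end, r was -0.80 for Rps4x (rho -0.66, -0.71 and -0.85) and -0.67 for Rps18 (rho -0.67, -0.60 and -0.80). Rps18 and Rps4x, which fell in Lyn-/- mice relative to WT mice, were thus at the opposite end from Rpl41 and the stalk proteins. These correlations are descriptions over 20 libraries in 5 genotypes, and Beta-s itself depends on the scaling. In Lyn-/-Ifnar1-/- mice 1 to 4 it was 500319, 427403, 1411050 and 1013560 RPKM, at TMM factors of 1.20, 1.35, 0.428 and 0.629. Hemoglobin genes took 38.5, 37.2, 38.9 and 41.0% of reads in the same mice. The part of red cells in the correlations was not tested.

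**Figure D5:**
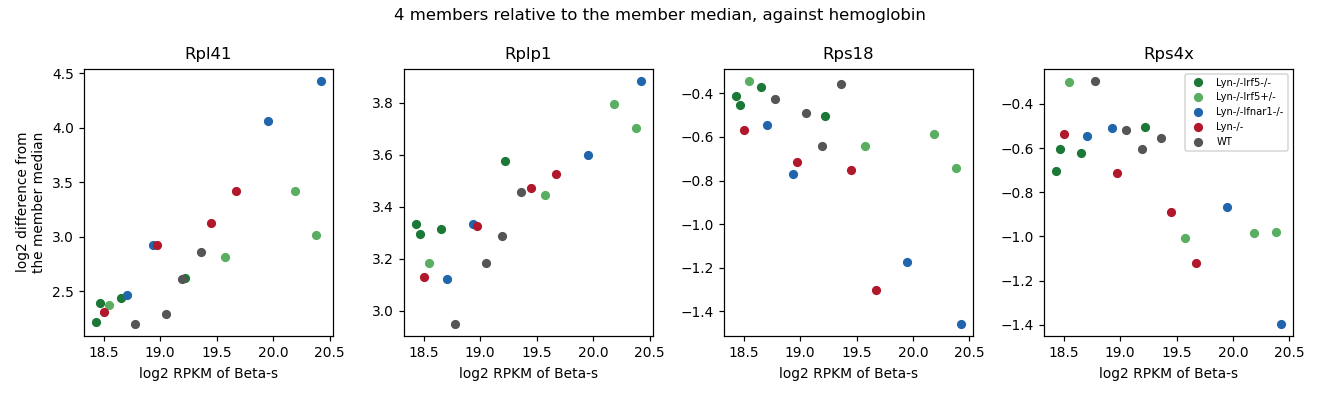
Difference of Rpl41, Rplp1, Rps18 and Rps4x from the median of all members in the same mouse (log2, vertical) against log2 Beta-s (horizontal), 1 point per mouse, coloured by genotype. Rpl41 and Rplp1 go up with Beta-s (r = 0.84 and 0.87) and Rps18 and Rps4x go down (r = -0.67 and -0.80).

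The tract at the start was also read against the rise in Lyn-/-Irf5+/- mice, as a description. Of the members with a promoter entry, 5 of 24 that rose and 6 of 35 that did not had the tract exactly at the first listed start, and the median fold change was 0.51 with it and 0.50 without it. Rpl22, with the largest rise, had none in the window printed above, which does not hold its start in the other annotation.

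Other genes of the pathway were read from the same fit. Among 19 translation factors and other genes with TOP mRNAs, 5 rose and 0 fell in Lyn-/-Irf5+/- mice relative to Lyn-/- mice (6.12% of all genes rose), among them Eef1b2, a subunit of the factor that recharges EF1A (0.61, limma adjusted p = 0.015), Eif3e of the initiation factor eIF3 (0.59, adjusted p = 0.0143) and Naca of the nascent chain complex (0.55, adjusted p = 0.0108). In Lyn-/-Irf5-/- mice 0 of 19 rose and 2 fell, beside 5.36% and 8.58% of all genes. Gnb2l1 encodes RACK1, a scaffold on the small subunit whose symbol the rule does not match, and its value in Lyn-/-Irf5+/- mice was 0.50 (limma adjusted p = 0.0501), which did not pass the test. Of 63 RNA polymerase I and assembly factors tested, 23 fell and 1 rose in Lyn-/- mice relative to WT mice, beside 15.5% and 17.1% of all genes, and their median was -0.44. These included the small nucleolar RNP proteins Nop58 (-0.93, limma adjusted p = 0.00046), Nop56 (-0.92) and Nop10 (-0.84). In Lyn-/-Irf5+/- mice 4 of the 63 rose and 0 fell relative to Lyn-/- mice, close to the 6.12% of all genes that rose. In Lyn-/-Irf5-/- mice 2 of the 63 rose and 1 fell, a smaller share than the 5.36% and 8.58% of all genes. Of 21 genes of mTORC1, S6 kinase, LARP1 and MYC, 1 rose and 0 fell in Lyn-/-Irf5-/- mice. The share that rose was close to the 5.36% of all genes. The gene was Myc, which drives ribosome synthesis (1.16, limma adjusted p = 0.00303). None of the 21 passed in Lyn-/-Irf5+/- mice.

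Outside the list, the genes whose pattern over 20 libraries was most like the member median were Eef1b2 (r = 0.93), Gnb2l1 (r = 0.90), Eef1a1 (r = 0.88), Naca (r = 0.87) and Gas5 (r = 0.83), followed by Psmg4, Vti1b, Prpf38a, 3110056K07Rik and Zfp748 with r of 0.82 to 0.78. Spearman's rho for the first 5 was 0.93, 0.78, 0.82, 0.88 and 0.72, and r without the 2 libraries farthest in the member median was 0.91, 0.81, 0.79, 0.78 and 0.67. Eef1a1 and Eef1b2 encode parts of elongation factor 1, and Gas5 is a non-coding host of small nucleolar RNAs.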

How the data were processed

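RNA of peripheral blood was sequenced by the authors on a NextSeq 500 from strand-specific libraries of 20 mice. The deposited table holds TMM-scaled RPKM, 1 column per mouse and 0 columns of other samples. The submitters' notes name bcl2fastq, STAR, featureCounts, edgeR and mm10. The annotation, the strand setting, the treatment of reads with several matches and the rule that chose the listed genes are not given in the sources used here.

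Whole reads were recovered from the RPKM steps for 9228 of 9228 genes (tolerance 0.05 reads), so the precision of each value follows from its reads. A gene was tested if 4 of 20 libraries or more held 1 RPKM or more. On log2(RPKM + 0.5), 1 linear model of genotype over the 20 libraries was fitted with limma 3.58.1 (R 4.3.3, trended variance), and p-values were adjusted by Benjamini-Hochberg within each comparison. The script was tested on simulated data. The labels name the replicates of a genotype and say no more of their origin, so p-values measure the spread between these samples. No libraries were identical.

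Named members were those picked for their role, up to 10 called members with the largest change in each direction, the 5 highest, the 5 lowest and the 5 least steady ones, and the 10 genes most like the member median. The members, lists and tests were chosen with earlier results of these data known, and 1 comparison was added after the data were seen. Other scalings, filters, pseudocounts, weights, voom on the recovered reads, a replicate block and the omission of each mouse were tried. Start sequences are from RefSeq. Some items are not reported here.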

Additional observations from a re-analysis of the deposited data

Results flagged for a closer look

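In 130 groups of 4 mice, the highest or lowest mouse was tested for its gap to the nearest other mouse against the range of the group (Dixon's test at its usual critical value). Chance flags about 1 in 20 groups, and 5 of 130 were flagged. Rps18 measured 95.9 RPKM in Lyn-/- mouse 4, below the other Lyn-/- mice (136 to 141 RPKM), and this mouse enters every comparison with Lyn-/- mice. Rpl36a measured 79.4 RPKM in Lyn-/- mouse 1, below the other Lyn-/- mice (90.3 to 92.0 RPKM). Rpl11 measured 350.3 RPKM in Lyn-/-Irf5+/- mouse 1, below the others of its genotype (494 to 514 RPKM). Rplp0 measured 1589.8 RPKM in Lyn-/-Irf5-/- mouse 4, above the others (1280.4 to 1304 RPKM), and Rpl36al measured 26.6 RPKM in Lyn-/-Ifnar1-/- mouse 2, above the others (8.99 to 11.8 RPKM).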

How the results depend on the processing

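The read depth limits the paralogs and Rps19bp1 most. Relative to Lyn-/- mice, the count of members higher in Lyn-/-Irf5-/- mice (3) was 11 with array weights, 5 with only those genotypes, 8 with equal RPKM sums, 71 with equal sums outside hemoglobin, 0 with equal member medians and 8 without Lyn-/-Ifnar1-/- mice 3 and 4, and the members' median was 0.74, 0.88 and 0.0015 under the 3 scalings. In Lyn-/-Irf5+/- mice (31) it was 11 with only those genotypes, 0 with equal sums and 2 with equal member medians, with medians of 0.26, 0.82 and 0.058 under the 3 scalings. In Lyn-/-Ifnar1-/- mice 2 members were higher with equal sums outside hemoglobin, and the median was -0.081 with equal sums. Relative to Lyn-/-Irf5-/- mice, the count lower in Lyn-/-Ifnar1-/- mice (1) was 2 with at least 1 RPKM in all libraries, no trend, a pseudocount of 0.1 or the replicate block, 4 with equal sums (median -0.79), 31 outside hemoglobin (median -0.71), and 0 with array weights, median-of-ratios scaling, equal member medians, only those genotypes or without Lyn-/-Ifnar1-/- mice 3 and 4. In Lyn-/-Irf5+/- mice the median relative to Lyn-/-Irf5-/- mice was -0.46, -0.049 and 0.068 under the 3 scalings. In Lyn-/- mice relative to WT mice, the count lower (9) was 19 with array weights, 1, 68 and 0 under the 3 scalings (medians -0.46, -0.80 and 0.021) and 16 without Lyn-/-Ifnar1-/- mice 3 and 4, and 2 were higher with equal member medians. Equal member medians remove by construction what the members share, and the cause of the other changes was not tested.

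Calls over all genes also depended on the scaling. In Lyn-/-Irf5+/- mice 532 genes rose and 736 fell, against 15 and 442 with equal sums and 337 and 254 outside hemoglobin. In Lyn-/-Irf5-/- mice 466 rose and 746 fell, against 353 and 262, and 2818 and 346. In Lyn-/-Ifnar1-/- mice 238 rose and 344 fell relative to Lyn-/- mice, against 3 and 117, and 41 and 108, and relative to Lyn-/-Irf5-/- mice 170 and 179, against 27 and 167, and 132 and 718. In Lyn-/- mice relative to WT mice 1483 rose and 1346 fell, against 515 and 332, and 515 and 2442. Other settings moved a count by over 1.5 times too. With array weights 880 genes rose and 1135 fell in Lyn-/-Irf5-/- mice and 673 fell in Lyn-/-Ifnar1-/- mice relative to Lyn-/- mice. With only the genotypes compared, 335 rose in Lyn-/-Irf5+/- mice and 14 rose and 68 fell in Lyn-/-Ifnar1-/- mice relative to Lyn-/- mice. Without Lyn-/-Ifnar1-/- mice 3 and 4, 1182 fell in Lyn-/-Irf5+/- mice and 740 in Lyn-/-Ifnar1-/- mice relative to Lyn-/- mice. In Lyn-/-Ifnar1-/- mice relative to Lyn-/-Irf5-/- mice, 321 rose with voom, 266 with the replicate block and 81 with array weights, 4 rose and 68 fell with only those genotypes, and 7 rose and 76 fell without Lyn-/-Ifnar1-/- mice 3 and 4. In Lyn-/- mice relative to WT mice, 883 fell with at least 1 RPKM in all libraries, where fewer genes were tested. With equal member medians, 110 rose and 2493 fell in Lyn-/-Irf5+/- mice, 152 rose in Lyn-/-Irf5-/- mice and 80 rose in Lyn-/-Ifnar1-/- mice relative to Lyn-/- mice, 368 rose in Lyn-/-Ifnar1-/- mice relative to Lyn-/-Irf5-/- mice, and 532 fell in Lyn-/- mice relative to WT mice.

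Leaving out each mouse in turn gave 0 to 6 members higher in Lyn-/-Irf5-/- mice (medians 0.16 to 0.22), 10 to 45 in Lyn-/-Irf5+/- mice (0.43 to 0.65) and 0 to 1 in Lyn-/-Ifnar1-/- mice (0.04 to 0.20), the 1 without mouse 1 of that genotype. Relative to Lyn-/-Irf5-/- mice it gave 0 to 1 higher and 0 to 5 lower in Lyn-/-Ifnar1-/- mice (-0.12 to 0.01) and 0 in Lyn-/-Irf5+/- mice (0.27 to 0.46). In Lyn-/- mice relative to WT mice it gave 0 to 1 higher, the 1 without WT mouse 1, and 1 to 11 lower (-0.27 to -0.18).

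The difference between Rpl and Rps members was -0.29, -0.25, -0.20, -0.17 and -0.26 with means, -0.54, -0.45, -0.28, -0.23 and -0.45 without the paralogs and Rps19bp1, and -0.34, -0.29, -0.22, -0.22 and -0.33 with both changes, in Lyn-/-Irf5-/-, Lyn-/-Irf5+/-, Lyn-/-Ifnar1-/-, Lyn-/- and WT mice. Rpl41 in Lyn-/-Ifnar1-/- mice relative to Lyn-/- mice turned to -0.023 with array weights and -0.19 without mice 3 and 4, and Rpl22 and Rpl5 in Lyn-/-Irf5+/- mice relative to Lyn-/-Irf5-/- mice turned to -0.37 and -0.31 with equal sums. Same-numbered mice did not deviate together in every pair of any comparison (r of -0.24 to 0.50 over 24 pairs, and 11 of 48 best matches were of the same number). A pairing by number was thus not seen, but these values cannot show whether such mice were kept or processed together. With the replicate block, 2 members were higher in Lyn-/-Irf5-/- mice, 32 in Lyn-/-Irf5+/- mice and 0 in Lyn-/-Ifnar1-/- mice relative to Lyn-/- mice, and 9 were lower in Lyn-/- mice relative to WT mice.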
